A study of Homo sapiens with 6 samples.

Results

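The genes described here are 59 protein-coding genes of human chromosome 2, named for the bands 2q11 to q24, out of 35544 loci in the deposited expression table. They were chosen by name and position after neighbouring genes of this stretch had been seen to have higher FPKM (fragments per kilobase of transcript, scaled by the mapped fragments of each library) in one group of libraries than in the other. The contrast between the groups therefore chose the members, and their fold changes are given as a description with no test. Each member was taken from the row that carries its name, and TMEM131, which stands on more than 1 row, from the row with the higher mean. In GENCODE 29, all 59 members lie on chromosome 2 of GRCh38, from TMEM131, which starts at 97756333, to PSMD14, which ends at 161411717. These positions come from the annotation; the table holds none, and its reads were aligned to another build, hg19.

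PolyA RNA of SiHa cells, a long-established line from a human squamous carcinoma of the cervix, had been sequenced. One group of 3 libraries, circ_0005358, came from cells that had received the plasmid of hsa_circ_0005358, a circular RNA, and the other 3, vector, from cells that had received the vector plasmid. All cells were collected at 72 h, and the study asked which mRNAs lie downstream of the circular RNA. No label ties a library number to a culture of its own. Standard errors and p-values therefore cover the scatter among 3 libraries a group, and that scatter could be technical.

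Human chromosome 2 arose in the human lineage by the end-to-end fusion of a pair of chromosomes that remain separate in other great apes, and the fusion site lies within this stretch of the long arm. Duplicated blocks surround that site, so that RANBP2, LIMS1 and ANAPC1 have near-identical copies or pseudogenes nearby, among them the RGPD genes, which derive from RANBP2. The stretch holds no single gene family. Its members encode subunits of RNA polymerases, the proteasome, the mitochondrial ribosome and the Arp2/3 complex, along with kinases, glycosyltransferases and DNA repair proteins, most of them expressed in nearly all cell types. Neighbouring genes that share no function are known to vary together in expression where cells differ in the copy number or chromatin state of a chromosome segment; neither was measured here.

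Depth was judged on loci with a single transcript, where the most frequent small product of FPKM and transcript length was taken as 1 fragment. On that basis 1 FPKM stood for between 16.3 and 22.99 mapped fragments per kilobase of transcript. The lowest depth was in circ_0005358 library 2, at 71.1% of the deepest. Vector library 3 listed 27803 loci above 0, against 23227 to 23834 in the other 5 libraries. CDCP1, the mRNA named in the study's title, stood at 7.32, 7.32 and 6.73 FPKM with circ_0005358, against 19.5, 19.8 and 20.6 FPKM with vector. The 7 epithelial markers checked, among them keratins, had summed levels of 618 to 696 FPKM with circ_0005358 and of 1269 to 1338 FPKM with vector, and 6 of them fell (limma, adjusted p of 0.05). Summed markers of endothelial, erythroid and neural cells stayed below 1 FPKM in every library. Of the 2 neural markers 1 had no row, so that sum is of 1 gene. Markers of fibroblasts (COL1A1, LUM and DCN) reached sums of 2.099 FPKM with circ_0005358 and 10.2 FPKM with vector, and of these only LUM passed the filter for testing. Leukocyte markers (PTPRC, CD3E, CD14 and LYZ) summed to 1.47 to 16.3 FPKM with circ_0005358 and to 10.4 to 13.3 FPKM with vector, and only 1 of the 4 passed that filter. The part of these other markers in the results below was not tested.

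Most members had slightly higher FPKM in the libraries with the circular RNA plasmid. A locus was tested if 3 or more libraries reached 1 FPKM. This left 57 of the 59 members, and 46 of these had a positive log2 fold change (circ_0005358 over vector, on the log2(FPKM + 1) scale). Their median log2 fold change was 0.19, with quartiles of 0.073 and 0.34, beside 0.022 over all 10295 tested loci. In linear FPKM the median ratio of group means was 1.17 for members and 1.02 for all tested loci. By ratio, 36 members lay between 1.1 and 1.5, 4 above 1.5, 6 between 1 and 1.1, and 11 below 1. Over all loci 53.03% had a positive log2 fold change, against 80.7% of the members, a difference that the choice of the stretch builds in. In bulk RNA, fewer cells with a given level and less RNA per cell cannot be told apart.

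The shift was present in each of the 3 libraries. The median difference of the members from the mean of the vector libraries, on the log2 scale, was 0.18, 0.19 and 0.24 in circ_0005358 libraries 1 to 3, against -0.0038, 0.030 and -0.0098 in vector libraries 1 to 3. Over all tested loci the same medians ran from 0.013 to 0.040 with circ_0005358 and from -0.0062 to 0.016 with vector. The summed FPKM of the members was 553, 567 and 596 with circ_0005358 and 496, 507 and 484 with vector. The lower depth of circ_0005358 library 2 did not set it apart on this measure, and without that library the median log2 fold change was 0.21, with 46 of 57 members positive. Without vector library 3 it was 0.18, with 45 positive.

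**Figure D1:**
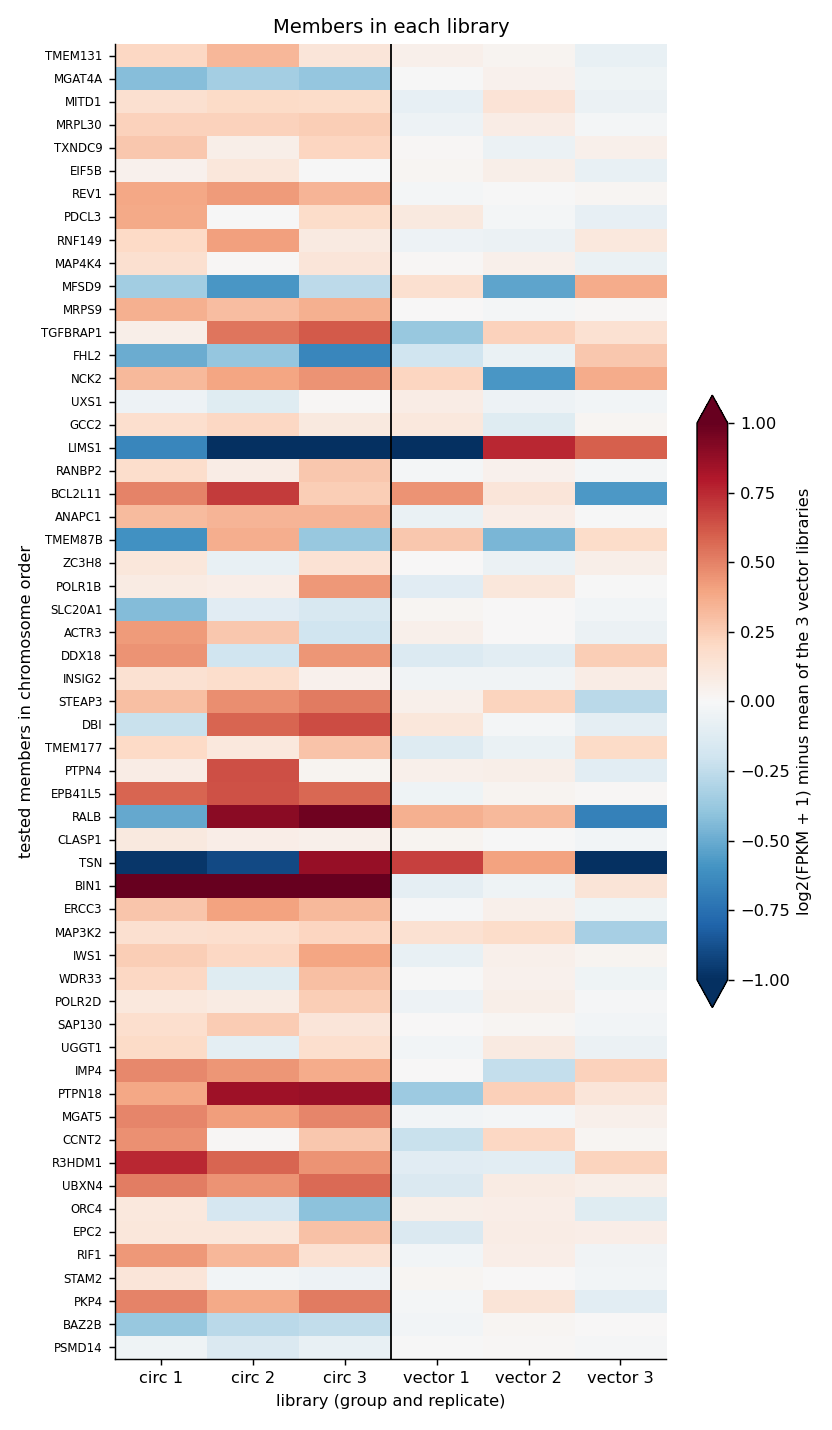
Colour shows log2(FPKM + 1) minus the mean of the 3 vector libraries for the 57 tested members (rows, in chromosome order) in each library (columns), cropped at 1 in both directions. Red prevails in the 3 circ_0005358 columns, whose medians are 0.18, 0.19 and 0.24, while TSN, LIMS1, RALB and TMEM87B change colour between libraries of the same group.

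Past the threshold of the fit across all loci (limma, adjusted p of 0.05) stood 10 members with higher and 2 with lower values, 17.5% and 3.51% of those tested, beside 6.41% and 4.96% of all tested loci. In either direction these are 21.1% of the members and 11.4% of the loci. The contrast chose the members, so nothing is read from these counts. The 3 libraries of one group did not overlap the 3 of the other in 24 members with higher and 5 with lower values, and they overlapped in the other 28. Over all tested loci the groups stood apart with higher values in 19.8%, with lower values in 15.9% and in either direction in 35.8%. The count of members past the threshold was lower with any 1 library left out, between 5 and 8 while the number with a positive log2 fold change lay between 45 and 47.

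**Figure D2:**
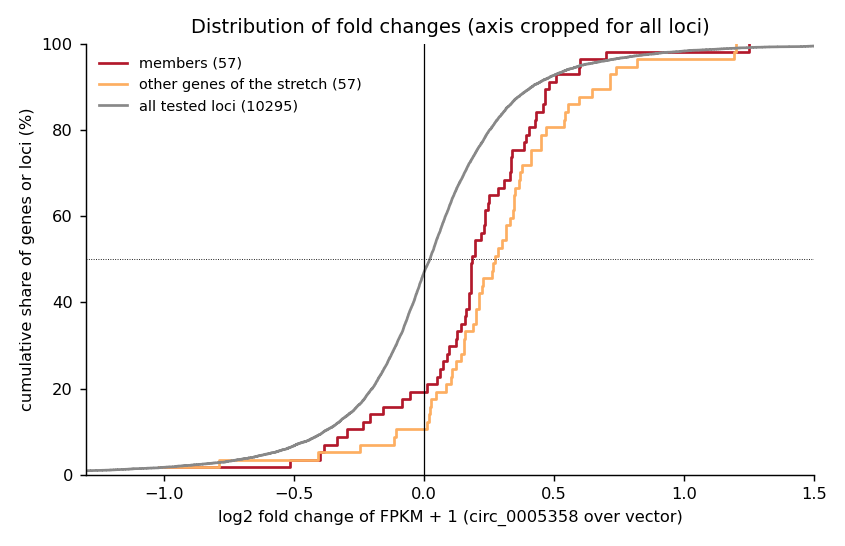
Cumulative share (y axis, %) of genes or loci against their log2 fold change of FPKM + 1 (x axis, circ_0005358 over vector) for the members, the other genes of the stretch and all tested loci. The curves cross 50% at 0.19, 0.27 and 0.022.

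The members are a part of the genes between the first and the last of them. Another 57 protein-coding genes with a row of their own start in that stretch of 63.6 megabases and passed the filter. Their median log2 fold change was 0.27, and 51 were positive, 14 past the threshold with higher and 2 with lower values. The median was thus not lower among neighbours left out of the list than among its members, though the same contrast drew attention to both. Of these neighbours, HNMT and GTDC1 (higher) and EN1 (lower), all past the threshold, reached 1 FPKM only in the group where they are high. On the rest of chromosome 2 the values differed: the 260 tested genes before TMEM131 had a median of -0.039 with 40.8% positive, and the 224 after PSMD14 a median of 0.0086 with 50.4% positive. Before TMEM131, 15 genes (5.77%) were past the threshold with higher and 13 (5%) with lower values, and after PSMD14 21 (9.38%) and 30 (13.4%), beside 6.41% and 4.96% of all tested loci. Since the part of the chromosome was picked for its values, these differences between its segments were not tested.

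The edges of the stretch were unlike each other. Just before TMEM131 lie COX5B, a subunit of cytochrome c oxidase, and ACTR1B, a dynactin subunit, 110.3 and 100.4 kilobases away. COX5B averaged 17.97 FPKM with circ_0005358 and 12.4 FPKM with vector, and ACTR1B 11.2 FPKM with circ_0005358 and 8.003 FPKM with vector. Their means were thus higher too, but neither gene passed the threshold (limma adjusted p = 0.127 and 0.123). The next 3 tested genes on that side, ANKRD36B, ANKRD36 and FAHD2B, had log2 fold changes of 0.065, 0.045 and 0.33. TMEM131 itself, which acts in the secretion of collagen, stood at 8.403, 9.25 and 7.85 FPKM in circ_0005358 libraries 1 to 3, against 7.44, 7.303 and 6.72 FPKM in vector libraries 1 to 3. At the far end, the last member, PSMD14, stood at 12.2, 11.4 and 11.9 FPKM with circ_0005358, against 12.6, 12.8 and 12.5 FPKM with vector. PSMD14 is the deubiquitinase of the proteasome lid, and its groups did not overlap, with the lower values in circ_0005358. Beyond it, IFIH1, GCA, COBLL1 and GALNT3 had log2 fold changes of -0.19, -0.19, -0.50 and -1.22, and TTC21B one of -0.0037. These genes lie farther off than those on the near side. In the same order, they start 959, 1011, 3346, 4440 and 4549 kilobases after the start of PSMD14. GALNT3 was low, averaging 0.237 FPKM with circ_0005358 and 1.88 FPKM with vector. It reached 1 FPKM only with vector and so passed the filter through that group. Of the genes named beyond PSMD14, only COBLL1 and GALNT3 passed the threshold (limma adjusted p = 0.0155 and 0.00117). The values therefore do not place the point at which the shift ends.

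Along the stretch, the shift was uneven. Taking members and other tested genes together in order, 114 genes fall into 6 runs of 19, whose median log2 fold changes were 0.20 (TMEM131 to MRPS9), 0.16 (TGFBRAP1 to RGPD8), 0.20 (TTL to TFCP2L1), 0.26 (CLASP1 to FAM168B), 0.45 (PLEKHB2 to MMADHC) and 0.26 (RND3 to PSMD14). Between 15 and 18 of 19 genes in a run were positive. The highest run holds an unbroken sequence from MGAT5 to GTDC1, 9.82 megabases between their starts, in which all 12 tested genes were higher and 11 passed the threshold. Over all tested loci, 53.03% were positive and 6.41% passed it with higher values. Of the 12, HNMT and GTDC1 reached 1 FPKM only with circ_0005358, so they passed the filter through the group where they are high. This sequence was chosen after its values were seen, so nothing is read from these counts. It comprises the members MGAT5, CCNT2, R3HDM1 and UBXN4 and the neighbours RAB3GAP1, ZRANB3, MCM6, DARS, HNMT, SPOPL, KYNU and GTDC1, with a median ratio of 1.51 and log2 fold changes from 0.24 for CCNT2 to 1.20 for HNMT. MCM6, a subunit of the replicative helicase, was the most abundant of them, at 64.3, 57.3 and 63.8 FPKM with circ_0005358, against 34.9, 35.3 and 33.5 FPKM with vector. DARS, a cytosolic aminoacyl-tRNA synthetase, stood at 31.1, 29.5 and 26.8 FPKM with circ_0005358, against 19.97, 19.7 and 19.5 FPKM with vector. RAB3GAP1, a regulator of Rab GTPases, stood at 26.8, 25.3 and 26.6 FPKM with circ_0005358, against 19.2, 19.6 and 18.1 FPKM with vector. In these 3 neighbours the groups did not overlap. Without the sequence, the 78 genes before it had a median of 0.20 and the 24 after it one of 0.20.

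**Figure D3:**
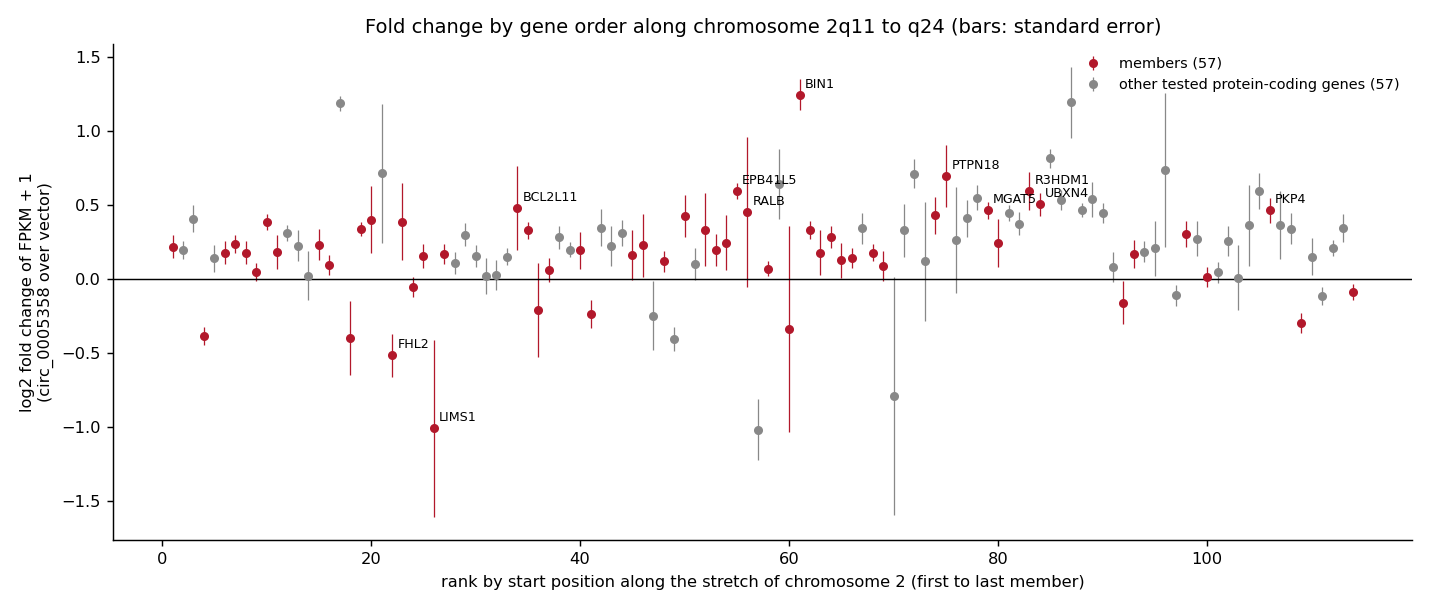
Log2 fold change of FPKM + 1 (y axis, circ_0005358 over vector; bars are standard errors from limma) against the rank of the gene along the stretch (x axis). Members are red and other tested protein-coding genes grey; members beyond 0.45 in size are named, with BIN1 at 1.25 the highest and LIMS1 at -1.01 the lowest.

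BIN1 stood farthest from 0. It encodes a BAR-domain protein that bends membranes in endocytosis and also binds MYC, and it was measured at 6.94, 8.62 and 8.31 FPKM in circ_0005358 libraries 1 to 3, against 2.54, 2.66 and 3.11 FPKM in vector libraries 1 to 3. Every circ_0005358 library lay above 3.11 FPKM, the highest vector value. BIN1 averaged 7.96 ± 0.897 FPKM with circ_0005358 and 2.77 ± 0.301 FPKM with vector (SD, n = 3 each), a log2 fold change of 1.25 (standard error 0.10), and was the only member past the threshold when the replicate number was added to the fit as a block. Leaving out any 1 library left its log2 fold change between 1.19 and 1.33.

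Among 6 members with a role in adhesion and the cytoskeleton, EPB41L5 and PKP4 were higher and past the threshold (33.3%, beside 11.4% of all tested loci). FHL2 was lower but not past it (limma adjusted p = 0.087), while ACTR3, NCK2 and LIMS1 overlapped between groups. EPB41L5, a FERM-domain protein of epithelial cell shape and junction turnover, stood at 5.44, 5.72 and 5.42 FPKM in circ_0005358 libraries 1 to 3, against 3.19, 3.4004 and 3.34 FPKM in vector libraries 1 to 3. Its log2 fold change was 0.60 (standard error 0.056). PKP4, an armadillo protein of cell junctions, stood at 8.29, 7.56 and 8.43 FPKM with circ_0005358, against 5.48, 6.203 and 5.104 FPKM with vector, a log2 fold change of 0.47 (standard error 0.085). Both genes were separated between groups in every library. FHL2, a LIM-domain coactivator that also binds integrins, ran the other way at 2.81, 3.11 and 2.43 FPKM with circ_0005358, against 3.68, 4.13 and 5.4997 FPKM with vector, a log2 fold change of -0.51 (standard error 0.15). ACTR3, a core subunit of the actin-nucleating Arp2/3 complex, had the highest mean of this group of genes, at 35.8, 32.1 and 22.9 FPKM with circ_0005358, against 27.4, 26.6 and 25.4 FPKM with vector. Only circ_0005358 libraries 1 and 2 lay above the vector range, and library 3 lay below it. NCK2, an adaptor between receptors and actin, stood at 5.86, 6.19 and 6.48 FPKM with circ_0005358, against 5.34, 2.65 and 6.08 FPKM with vector, with vector library 2 apart from the other 5. Over the 6 genes the median log2 fold change was 0.28.

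The glycan and secretory enzymes split. MGAT5 and MGAT4A both add branches to N-glycans, and they stood on opposite sides. MGAT5, whose branches are carried by cadherins and integrins, had 9.57, 9.11 and 9.58 FPKM in circ_0005358 libraries 1 to 3, against 6.39, 6.43 and 6.82 FPKM in vector libraries 1 to 3, a log2 fold change of 0.47 (standard error 0.056). MGAT4A had 1.603, 1.77 and 1.69 FPKM in circ_0005358 libraries 1 to 3, against 2.499, 2.603 and 2.41 FPKM in vector libraries 1 to 3, a log2 fold change of -0.38 (standard error 0.061). Neither gene overlapped between groups, so the pair differed in direction in every library. UXS1, which makes UDP-xylose for proteoglycans, and UGGT1, the glucosyltransferase that checks glycoprotein folding, overlapped between groups, with log2 fold changes of -0.055 and 0.088. UGGT1 had the highest mean of these genes, at 15.1, 12.1 and 14.8 FPKM with circ_0005358, against 12.8, 13.9 and 12.5 FPKM with vector. CHST10, the sulfotransferase of the HNK-1 epitope, did not pass the filter: its values were 1.02, 0.961 and 1.14 FPKM with circ_0005358, against 0.413, 0.309 and 0.383 FPKM with vector. All 3 circ_0005358 values of CHST10 lay above the vector range, but only 2 reached an FPKM of 1. Of the 5 tested genes, 3 were positive.

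Members that act in cell division, nuclear transport and proteolysis were mostly higher, 6 of 7, beside 80.7% of all tested members. UBXN4, an endoplasmic reticulum protein that recruits the ATPase VCP for protein degradation, had the highest mean of all members. It stood at 55.96, 53.6 and 58.2 FPKM in circ_0005358 libraries 1 to 3, against 35.3, 41.4 and 40.8 FPKM in vector libraries 1 to 3, a log2 fold change of 0.51 (standard error 0.079), with no overlap. ANAPC1, the scaffold subunit of the anaphase-promoting complex, stood at 11.2, 11.3 and 11.3 FPKM in circ_0005358 libraries 1 to 3, against 8.35, 9.23 and 8.74 FPKM in vector libraries 1 to 3, a log2 fold change of 0.33 (standard error 0.057). ANAPC1 and UBXN4 were the pair of these genes past the threshold, 28.6% of the 7. Beside this stand 21.1% of all tested members and 11.4% of all tested loci, in either direction. Nothing is read from this count. RANBP2, a large nucleoporin and SUMO ligase, stood at 20.7, 19.1 and 22.1 FPKM with circ_0005358, against 17.9, 18.7 and 17.9 FPKM with vector, and CLASP1, which stabilizes microtubules, at 12.4, 12.1 and 11.996 FPKM with circ_0005358, against 11.8, 11.5 and 11.3 FPKM with vector. Their groups stood apart by less than 1 FPKM each. MITD1, a factor of the last step of cytokinesis, and RNF149, a ubiquitin ligase, had log2 fold changes of 0.18 and 0.23. Of these 7 members, only PSMD14 was lower, as given above.

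All 7 members of the transcription group had positive log2 fold changes, from 0.063 for ZC3H8 to 0.34 for ERCC3. Of all tested members 80.7% were positive, which the choice of the stretch builds in, so nothing is read from this count. ERCC3, the XPB helicase of TFIIH that opens promoters and acts in nucleotide excision repair, stood at 8.97, 9.89 and 9.27 FPKM in circ_0005358 libraries 1 to 3, against 7.16, 7.53 and 6.98 FPKM in vector libraries 1 to 3. Its groups did not overlap, and its standard error was 0.062. IWS1, a partner of the elongation factor SPT6, had the highest mean here, at 14.4, 14.01 and 16.1 FPKM with circ_0005358, against 11.3, 12.4 and 12.2 FPKM with vector, and POLR2D, a subunit of RNA polymerase II, stood at 9.44, 9.26 and 10.5 FPKM with circ_0005358, against 8.37, 9.12 and 8.61 FPKM with vector. These genes were also separated between groups, IWS1 by a wider margin. POLR1B, the second largest subunit of RNA polymerase I, overlapped, with 6.46, 6.39 and 8.52 FPKM with circ_0005358, against 5.53, 6.64 and 6.02 FPKM with vector. CCNT2, a cyclin of the elongation kinase P-TEFb, and WDR33, which recognizes the polyadenylation signal, overlapped as well, with log2 fold changes of 0.24 and 0.13. ZC3H8, a zinc finger protein of the little elongation complex, was at the low end with a mean of 1.67 FPKM.

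Chromatin members differed in direction. SAP130, a subunit of the SIN3 histone deacetylase complex, stood at 11.7, 12.5 and 11.4 FPKM with circ_0005358, against 10.4, 10.5 and 10.2 FPKM with vector, and EPC2, a homologue of the TIP60 subunit EPC1, at 4.75, 4.73 and 5.502 FPKM with circ_0005358, against 3.82, 4.61 and 4.56 FPKM with vector. Both were higher without overlap, by log2 fold changes of 0.18 and 0.17. BAZ2B, a bromodomain protein, was lower without overlap, at 1.37, 1.57 and 1.61 FPKM with circ_0005358, against 2.04, 2.14 and 2.09 FPKM with vector, a log2 fold change of -0.30 (standard error 0.065). Among genes of genome maintenance, REV1, the scaffold polymerase of translesion synthesis, stood at 6.42, 6.62 and 6.18 FPKM in circ_0005358 libraries 1 to 3, against 4.601, 4.66 and 4.76 FPKM in vector libraries 1 to 3, a log2 fold change of 0.38 (standard error 0.055). RIF1, which controls replication timing and end joining, had the highest mean of these 3, at 12.5, 11.6 and 10.2 FPKM with circ_0005358, against 8.81, 9.47 and 8.79 FPKM with vector. Neither REV1 nor RIF1 overlapped between groups, while ORC4, a subunit of the origin recognition complex, overlapped at 5.88, 4.69 and 3.83 FPKM with circ_0005358, against 5.65, 5.71 and 4.88 FPKM with vector.

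The mitochondrial and ribosomal members were positive throughout those tested, beside 80.7% of all tested members. MRPS9, of the small mitochondrial ribosomal subunit, had nearly constant values within each group, 20.5, 19.9 and 20.5 FPKM in circ_0005358 libraries 1 to 3, against 15.9, 15.7 and 16.01 FPKM in vector libraries 1 to 3. This gave it a log2 fold change of 0.34 (standard error 0.046) and no overlap. MRPL30, of the large subunit, shares its row with C2orf15, LIPT1 and clone-named loci, and that joined row stood at 3.48, 3.48 and 3.54 FPKM with circ_0005358, against 2.69, 3.01 and 2.76 FPKM with vector. TMEM177, which stabilizes an assembly factor of cytochrome c oxidase, had a log2 fold change of 0.20. CHCHD5, a protein of the intermembrane space, never reached an FPKM of 1 and was not tested, with 0.686, 0.923 and 0.819 FPKM with circ_0005358, against 0.521, 0.658 and 0.764 FPKM with vector. In ribosome building and translation, EIF5B, which joins the ribosomal subunits, stood at 16.8, 17.7 and 16.2 FPKM with circ_0005358, against 16.5, 16.9 and 15.4 FPKM with vector. Its groups overlapped, as did those of DDX18, a helicase of ribosome assembly with a log2 fold change of 0.23. IMP4, of the U3 ribonucleoprotein, stood apart at 9.03, 8.74 and 8.296 FPKM with circ_0005358, against 6.19, 5.098 and 7.43 FPKM with vector, a log2 fold change of 0.43 (standard error 0.13).

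Kinases, phosphatases, the GTPase gene RALB and the apoptosis gene were all positive (6 of 6), none of them among the members past the threshold. Beside this, 80.7% of all tested members were positive and 21.1% passed the threshold in either direction. PTPN18, a phosphatase that acts on the HER2 receptor, had the second highest log2 fold change of all members, 0.70, with a standard error of 0.21. Its values were 2.04, 3.18 and 3.22 FPKM in circ_0005358 libraries 1 to 3, against 0.8101, 1.74 and 1.53 FPKM in vector libraries 1 to 3. The groups stood apart, but the vector libraries spanned 2.15-fold, with library 1 the lowest. MAP4K4, a kinase of cell migration and stress signalling, had the highest mean at 15.2, 13.6 and 14.7 FPKM with circ_0005358, against 13.6, 14.03 and 12.8 FPKM with vector, and its groups overlapped. MAP3K2, upstream of the ERK5 and JNK kinases, stood between 10.4 and 10.9 FPKM in every library except vector library 3, at 7.14 FPKM. PTPN4, RALB and BCL2L11 overlapped, with log2 fold changes of 0.25, 0.46 and 0.48. BCL2L11, which encodes the cell death protein BIM, stood at 4.25, 5.02 and 3.41 FPKM with circ_0005358, against 4.07, 3.04 and 1.49 FPKM with vector.

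Transport and metabolism genes went both ways, and none of the 5 tested passed the threshold, beside 11.4% of all tested loci. SLC20A1, a phosphate carrier of the plasma membrane, was the most abundant of them and lower with circ_0005358, at 26.3, 33.3 and 32.2 FPKM in circ_0005358 libraries 1 to 3, against 36.4, 36.2 and 35.4 FPKM in vector libraries 1 to 3. Its groups did not overlap, with circ_0005358 library 1 the lowest and a log2 fold change of -0.23 (standard error 0.10). STEAP3, the ferrireductase that frees transferrin-bound iron in endosomes, was higher without overlap, at 4.14, 4.79 and 4.9998 FPKM with circ_0005358, against 3.33, 3.88 and 2.47 FPKM with vector, a log2 fold change of 0.43 (standard error 0.14). DBI, the acyl-CoA binding protein, stood at 12.2, 22.01 and 23.2 FPKM with circ_0005358, against 15.7, 14.2 and 13.4 FPKM with vector, where circ_0005358 library 1 lay below all vector libraries and the other circ_0005358 libraries above them. INSIG2, which holds the sterol sensor SCAP in the endoplasmic reticulum, had a log2 fold change of 0.12 at a mean of 1.703 FPKM. MFSD9, a putative transporter, overlapped at 1.16, 0.836 and 1.298 FPKM with circ_0005358, against 2.07, 0.9099 and 2.55 FPKM with vector.

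Of the trafficking genes beside BIN1, TGFBRAP1, a subunit of an endosomal tethering complex, overlapped at 5.84, 8.51 and 9.03 FPKM with circ_0005358, against 4.04, 6.68 and 6.297 FPKM with vector. GCC2, a golgin, and STAM2, which sorts ubiquitinated cargo at endosomes, had log2 fold changes of 0.16 and 0.013. STAM2 was the member nearest to 0, with group means of 6.01 FPKM with circ_0005358 and 5.94 FPKM with vector. The chaperones TXNDC9 and PDCL3, which assist tubulin and actin folding with the CCT chaperonin, had log2 fold changes of 0.18 and 0.19. R3HDM1, an RNA-binding protein gene that hosts a microRNA of the miR-128 family, stood at 16.1, 14.1 and 12.8 FPKM with circ_0005358, against 8.38, 8.39 and 10.8 FPKM with vector, a log2 fold change of 0.59 (standard error 0.13) with no overlap.

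Over all loci, the number past the threshold was 582 to 802 with 1 library left out and 1171 with all 6. With each library left out in turn, BIN1, EPB41L5 and MGAT5 stayed past it all 6 times. MRPS9 did not pass without vector library 2, REV1 without vector library 1 or 2, and UBXN4 without circ_0005358 library 1 or 3. MGAT4A passed only without circ_0005358 library 2 or vector library 3, PKP4 only without circ_0005358 library 2 or vector library 2, ANAPC1 only without vector library 2 and R3HDM1 only without vector library 3. ERCC3 and BAZ2B passed in none of the 6 fits. The log2 fold changes themselves stayed between 0.30 and 0.36 for ERCC3, -0.32 and -0.26 for BAZ2B, 0.30 and 0.36 for ANAPC1 and 0.51 and 0.70 for R3HDM1. DBI, not past the threshold with all libraries, was past it without circ_0005358 library 1, at a log2 fold change of 0.61.

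**Figure D4:**
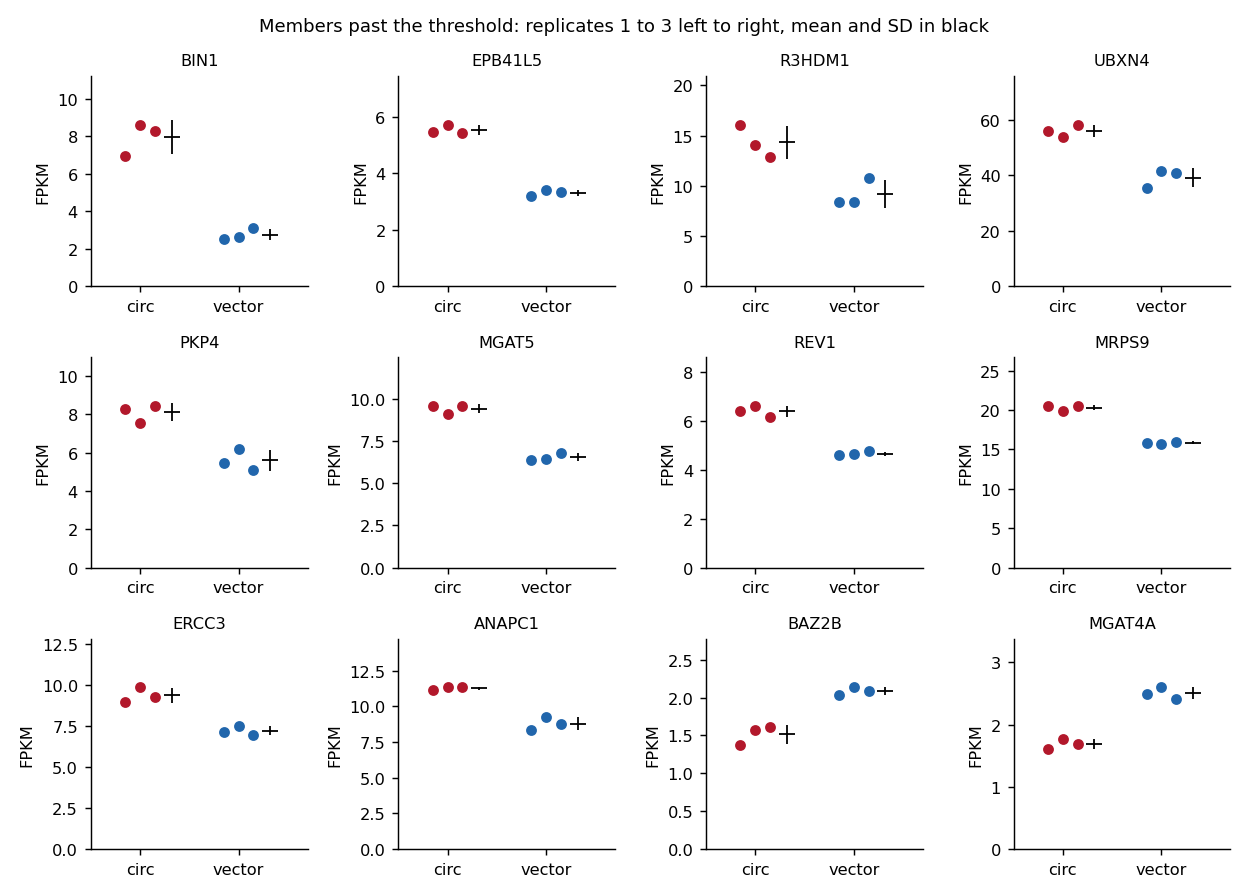
FPKM (y axis, from 0) in each library of the 12 members past the threshold, with circ_0005358 in red on the left and vector in blue on the right of each panel; the black mark and bar are the mean and SD of 3 libraries. In all 12 panels the 3 values of one group lie to one side of the other 3; MGAT4A and BAZ2B are lower with circ_0005358, and the other 10 higher.

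In 8 of the 57 tested members (14.04%, beside 17.8% of all tested loci), libraries of one group differed from each other by 2-fold or more. LIMS1, the PINCH adaptor that ties integrin-linked kinase to focal adhesions, had the widest range: 4.28, 2.56 and 2.72 FPKM in circ_0005358 libraries 1 to 3, against 2.24, 13.01 and 11.6 FPKM in vector libraries 1 to 3. Vector library 1 lay below all circ_0005358 libraries and the other vector libraries above them. Its log2 fold change of -1.01, the lowest of all members, had a standard error of 0.60, and without vector library 1 it was -1.69, past the threshold. TSN, which encodes the nucleic acid binding protein translin, stood at 8.57, 9.07 and 33.5 FPKM in circ_0005358 libraries 1 to 3, against 29.3, 23.8 and 7.85 FPKM in vector libraries 1 to 3. High and low values of TSN thus occurred in both groups, about 3.91-fold apart within circ_0005358. RALB, a Ras-like GTPase of exocytosis, stood at 5.13, 15.4 and 16.1 FPKM with circ_0005358, against 10.1, 9.96 and 4.45 FPKM with vector. TMEM87B, a Golgi membrane protein, stood at 8.66, 17.9 and 10.3 FPKM with circ_0005358, against 16.8, 9.74 and 15.7 FPKM with vector. In RALB and TMEM87B too, the groups overlapped and each held low and high values. The other 4 such members were BCL2L11, NCK2, PTPN18 and MFSD9, all given above. Without the 8 members, the median log2 fold change of the remaining 49 was 0.19.

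**Figure D5:**
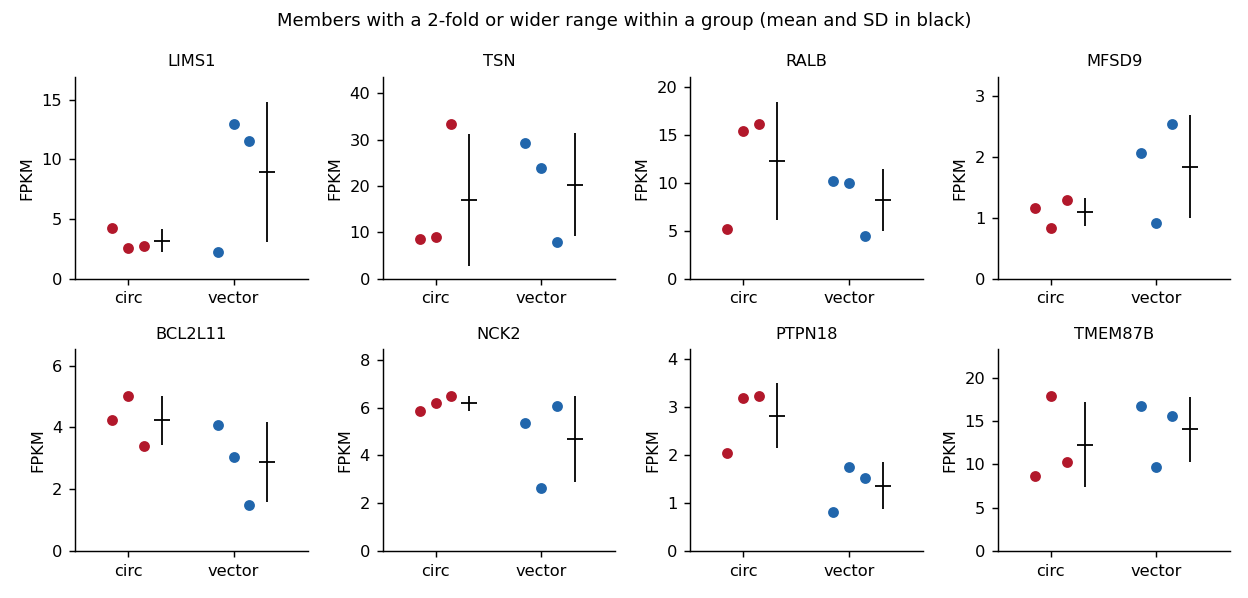
FPKM (y axis, from 0) in each library of the 8 members whose values differ by 2-fold or more within a group, with circ_0005358 in red on the left and vector in blue on the right; the black mark and bar are the mean and SD of 3 libraries. LIMS1 and TSN show high and low values within a group, 2.24 to 13.01 FPKM for LIMS1 with vector and 8.57 to 33.5 FPKM for TSN with circ_0005358.

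Several rows can share reads with a neighbour or a copy. In GENCODE 29, 9 members overlap another protein-coding gene and 34 overlap some gene on the opposite strand, and the sources used here do not state that strand was used in assigning reads. MITD1 and MRPL30 start head to head, and TXNDC9, EIF5B and REV1 overlap in a chain, as do IMP4 and CCDC115. CCDC115 stood at 2.56, 4.105 and 2.16 FPKM with circ_0005358, against 1.65, 1.66 and 5.33 FPKM with vector, high in vector library 3, where IMP4 was highest within its group as well. With circ_0005358 the genes did not peak together, CCDC115 being highest in library 2 and IMP4 in library 1. NIFK, a nucleolar protein that starts head to head with TSN, stood at 23.2, 21.98 and 13.1 FPKM with circ_0005358, against 10.8, 13.9 and 10.7 FPKM with vector. Among copies of RANBP2, RGPD8 had a log2 fold change of 0.28 and RGPD5 and RGPD6 of 0.020 and 0.028. LIMS3, a copy of LIMS1, stood at 0.00897, 0 and 1.603 FPKM with circ_0005358, against 0.0124, 1.21 and 0.0318 FPKM with vector. The pseudogene ANAPC1P1 stayed at or below 0.349 FPKM in every library. Values of RANBP2, LIMS1, ANAPC1 and the overlapping members are uncertain to the extent that reads were split among these rows.

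Promoters were compared because the members lie together and most differ the same way. RefSeq promoters (GRCh38.p14, from 250 bases before to 50 after the gene start) were found for 56 of the 59 members. They held a median of 66.3% G and C and 29 CG dinucleotides, beside 66.0% and 27 over 7301 tested genes and 58.3% and 14 over all 27305 promoters. The SP1 motif GGGCGG, on either strand, stood in 40 member promoters (71.4%), beside 44.6% of all promoters and 72.6% of those of tested genes. For the CCAAT box (CCAAT) the shares were 39.3%, 35.7% and 37.2%, and for the ETS motif CCGGAAG 17.9%, 10.7% and 20.7%. The E-box CACGTG stood in 7 member promoters (12.5%, beside 7.43% of all promoters and 10.5% of those of tested genes), the YY1 motif AAGATGGC in 4 (7.14%, beside 3.03% and 6.05%) and the palindromic NRF1 motif in 3 (5.36%, beside 1.36% and 2.38%). The TATA box TATAAA was found in that of FHL2 alone among members, and in 11.95% of all promoters and 5.14% of those of tested genes. Neither the CRE motif TGACGTCA nor the AP-1 motif TGAGTCA was in a member promoter; the CRE motif stood in 1.98% of all promoters and 3.68% of those of tested genes, and the AP-1 motif in 4.92% and 2.79%. Matches were searched on both strands, and neighbouring matches may share bases.

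The promoters of the 4 members past the threshold with the highest log2 fold changes are shown with that of BAZ2B, which was lower, so that members of both directions can be set beside each other. They lie in GRCh38.p14 at BIN1 on chr2:127107105-127107404 (minus strand), EPB41L5 on chr2:120012827-120013126 (plus strand), R3HDM1 on chr2:135531234-135531533 (plus strand), UBXN4 on chr2:135741605-135741904 (plus strand) and BAZ2B on chr2:159712393-159712692 (minus strand). Each is written 5′ to 3′ on the strand of its gene, and capitals mark matches to any of the 9 motifs on either strand.
BIN1: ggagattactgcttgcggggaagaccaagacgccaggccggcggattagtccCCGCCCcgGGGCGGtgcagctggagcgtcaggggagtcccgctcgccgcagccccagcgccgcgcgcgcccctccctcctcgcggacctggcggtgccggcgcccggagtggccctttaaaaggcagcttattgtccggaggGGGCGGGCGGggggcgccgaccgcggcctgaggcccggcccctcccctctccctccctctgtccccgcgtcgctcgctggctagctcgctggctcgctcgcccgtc
EPB41L5: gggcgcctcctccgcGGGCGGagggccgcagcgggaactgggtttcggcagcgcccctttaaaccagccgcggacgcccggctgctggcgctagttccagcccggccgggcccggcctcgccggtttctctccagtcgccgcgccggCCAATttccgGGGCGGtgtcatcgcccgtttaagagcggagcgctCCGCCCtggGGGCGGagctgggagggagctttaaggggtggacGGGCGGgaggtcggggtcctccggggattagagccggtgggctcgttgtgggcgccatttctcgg
R3HDM1: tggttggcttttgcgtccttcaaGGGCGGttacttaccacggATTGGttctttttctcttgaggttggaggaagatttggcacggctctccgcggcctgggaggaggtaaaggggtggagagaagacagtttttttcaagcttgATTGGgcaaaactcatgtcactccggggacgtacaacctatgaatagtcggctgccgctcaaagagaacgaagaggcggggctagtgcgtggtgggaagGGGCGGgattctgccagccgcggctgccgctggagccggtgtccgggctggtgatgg
UBXN4: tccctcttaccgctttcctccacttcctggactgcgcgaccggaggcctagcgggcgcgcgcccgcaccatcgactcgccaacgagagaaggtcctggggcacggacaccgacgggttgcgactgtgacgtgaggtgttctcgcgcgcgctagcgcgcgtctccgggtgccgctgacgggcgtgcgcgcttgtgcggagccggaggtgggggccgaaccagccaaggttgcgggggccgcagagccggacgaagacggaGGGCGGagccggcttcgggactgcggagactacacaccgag
BAZ2B: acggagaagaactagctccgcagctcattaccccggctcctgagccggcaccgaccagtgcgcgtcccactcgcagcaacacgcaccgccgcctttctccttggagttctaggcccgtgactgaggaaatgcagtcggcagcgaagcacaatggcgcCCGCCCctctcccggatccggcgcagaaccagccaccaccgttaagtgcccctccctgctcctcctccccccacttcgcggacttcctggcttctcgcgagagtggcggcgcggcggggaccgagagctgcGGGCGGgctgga

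These 5 windows held 75.3% G and C in BIN1, 72.7% in EPB41L5, 57.3% in R3HDM1, 70.7% in UBXN4 and 67.7% in BAZ2B. The SP1 motif occurred 4 times in BIN1, 5 times in EPB41L5, 2 times in R3HDM1 and 2 times in BAZ2B, and once in UBXN4. The R3HDM1 start faces that of ZRANB3, a DNA translocase of fork repair, within 1000 bases. ZRANB3 stood at 1.93, 1.67 and 2.05 FPKM with circ_0005358, against 1.32, 1.23 and 1.11 FPKM with vector, and was higher without overlap, as R3HDM1 was.

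Many members are subunits of complexes whose other parts are encoded elsewhere, and those partners were not used to choose the members. Of 184 partner genes listed for 14 complexes, 154 had a tested row, and 9 rose and 1 fell (limma, Benjamini-Hochberg adjusted over all loci). That is 6.49%, beside 11.4% of all tested loci, and the median log2 fold change of the partners was 0.012. For the 145 partners off chromosome 2 the median was 0.025, beside 0.19 for the members and 0.022 for all loci.

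By complex, partners of ANAPC1 in the anaphase-promoting complex had a median of 0.015 over 10 tested genes, of which ANAPC2 and CDC26 rose. ANAPC2 stood at 10.04, 11.02 and 10.02 FPKM with circ_0005358, against 6.71, 6.38 and 7.19 FPKM with vector (limma adjusted p = 0.008701), and CDC26 averaged 12.4 FPKM with circ_0005358 and 9.31 FPKM with vector (limma adjusted p = 0.0364). Both genes lie on chromosome 9, whose 382 tested genes had a median of 0.19. The 68 tested partners in the mitochondrial ribosome had a median of 0.005702, and 2 rose, MRPL15 and MRPL16 (limma adjusted p = 0.02201 and 0.0471), against a log2 fold change of 0.34 for the member MRPS9. None of the 7 tested partners of ERCC3 in TFIIH passed limma's adjusted threshold, 2 had an unadjusted p under 0.05, and their median was -0.00457. Among the 4 of 8 Arp2/3 partners with a tested row, ARPC2 fell: it stood at 17.003, 14.6 and 16.7 FPKM with circ_0005358, against 26.6, 26.98 and 25.1 FPKM with vector (limma adjusted p = 0.005703). ARPC2 lies on chromosome 2 beyond the stretch. ORC1 rose, at 14.5, 13.1 and 12.7 FPKM with circ_0005358, against 9.11, 8.91 and 9.03 FPKM with vector (limma adjusted p = 0.00839), while the member ORC4 had a log2 fold change of -0.16. POLR2E, PSMD7, RUVBL2 and TRRAP, partners of POLR2D, PSMD14 and EPC2, rose with log2 fold changes of 0.40, 0.28, 0.37 and 0.26 (limma adjusted p = 0.0232, 0.0419, 0.0382 and 0.0499). The remaining lists, for RNA polymerase I, P-TEFb, the integrin-linked kinase complex, the polyadenylation factor, the SIN3 complex and ESCRT-0, had no partner past the threshold with limma. Of their 26 tested partners, 2, both of the polyadenylation factor, had an unadjusted p under 0.05. The calls depended on the libraries: with any 1 left out, between 3 and 6 partners passed, and with the replicate block none did, with 23 at an unadjusted p under 0.05. ANAPC2, ORC1 and ARPC2 passed in 16, 16 and 17 of 18 alternatives, with adjusted p reaching 0.0826, 0.0855 and 0.0629 at most in limma.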

How the data were processed

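The authors deposited 1 table of FPKM values for 35544 loci in 6 libraries. The programs Trimmomatic and HISAT2 and the genome build hg19 are known per the submitters' processing notes, without versions. The sources used here do not give the annotation or the program behind the FPKM. Many loci carry identifiers made when transcripts are assembled from reads, 50 of the 59 member rows among them, and 2 member rows join several names. Positions and gene types came from GENCODE 29 on GRCh38.

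From the deposited FPKM, loci with at least 1 FPKM in at least 3 libraries were kept, and limma 3.58.1 (R 4.3.3) was fitted to log2(FPKM + 1) with group as the only term. Tests were two-sided, prior variances followed the mean, and p-values were adjusted over all tested loci after Benjamini and Hochberg, with a threshold of 0.05. The log2(FPKM + 1) scale understates changes of low genes. The fit was also run on simulated data, drawn with independent noise at each locus and no effect shared by a library. That run is not used as support for any result here. The table holds no counts, so no count model was used. The members and lists were chosen with earlier results of these data known. Every member is accounted for; library values are given for members with the largest and smallest log2 fold changes, the most abundant of each role, those with wide ranges and those with copies, and for others chosen after their values were seen. Other genes named are the 5 nearest tested on each side, CDCP1, partners past the threshold, and neighbours and overlapping genes chosen after their values were seen. Alternatives were other pseudocounts, filters, scalings, variance models and library weights, a replicate block, rows with 1 name only, and libraries left out, with the loci tested kept the same.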

Additional observations from a re-analysis of the deposited data

How the results depend on the processing

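The direction of the members' median held under every alternative run, from 0.16 to 0.22 on the log2 scale. The counts past the threshold held under some alternatives and not under others. With other pseudocounts and scalings, no variance trend, library weights, or rows with 1 name only, 1074 to 1299 loci passed. In those fits 11 or all of the 12 members passed again. The counts fell with no filter on low values, with the replicate block and with libraries left out. The contrast had chosen the members, so a positive median was built in, and its persistence in the same libraries is no support. The variance trend, the replicate block and the row filters leave each fold change as it was. The median was 0.22 at a pseudocount of 0.1 and 0.22 with FPKM of at least 5 in 3 libraries, and the median of the other genes of the stretch was 0.31, 0.31, 0.31 and 0.25 at pseudocounts of 0.1 and 0.5, with that filter and with libraries centred on their median. With no filter on low values 591 of 33088 loci (1.79%), 6 of 59 members and 3 partners passed. With the filter these were 1171 of 10295 loci (11.4%), 12 of 57 members and 10 partners. With a replicate block 259 loci (2.52%), 1 member (BIN1) and 0 partners passed. Same-numbered libraries correlated at 0.0481 to 0.0781 in their deviations from group means and differently numbered ones at -0.0537 to -0.0106, so over all loci each library correlated best with its own number, but under 0.1. Over the members alone the same-numbered pairs were at -0.425, -0.175 and -0.523. The labels give the numbers no shared origin. Without both circ_0005358 replicate 2 and vector replicate 3, 378 loci (3.67%), 2 members and 2 partners passed. Leaving out 1 library gave 582 to 802 loci (5.65% to 7.79%), 5 to 8 members and 3 to 6 partners. It left 45 to 47 members positive, with medians of 0.18 to 0.21 for members and 0.24 to 0.29 for the other genes. Fewer libraries by construction give larger standard errors. A replicate block by construction leaves the fit fewer degrees of freedom to estimate the scatter. How far this accounts for the lower counts with the block, and the cause of the other shifts, was not tested. Of 1004 log2 fold changes of members under the alternatives, 977 moved by less than 1 SD between replicates. Much of that count was fixed beforehand. Leaving out 1 of the 3 libraries of a group cannot move a value by 1 such SD. The row filters, the variance trend and the replicate block leave each value unchanged. The count is therefore no measure of robustness. The 5 members that changed sign in any alternative (EIF5B, PTPN4, RALB, STAM2 and TSN) had not passed the threshold.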

Other observations

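Some whole chromosomes had medians near that of the members. Over tested protein-coding genes, the median log2 fold change was 0.21 on chromosome 21 (92 genes, 81.5% positive), 0.19 on chromosome 9 (70.9% positive) and 0.17 on chromosome 15 (71.8% positive), and it was lowest on chromosome 4, at -0.066 (39.3% positive). Chromosome 2 as a whole had a median of 0.025 over 598 genes.

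Within the stretch, some neighbours that are not members stood far from the rest. IL1R1, the receptor of interleukin 1, stood at 9.81, 9.702 and 9.93 FPKM with circ_0005358, against 3.81, 3.69 and 3.71 FPKM with vector, and HNMT, which inactivates histamine, at 3.09, 1.62 and 2.85 FPKM with circ_0005358, against 0.307, 0.336 and 0.966 FPKM with vector. The transcription factor genes EN1 and TFCP2L1 went the other way, EN1 at 0.948, 0.792 and 0.862 FPKM with circ_0005358, against 1.53, 1.63 and 1.28 FPKM with vector and TFCP2L1 at 1.54, 2.16 and 0.865 FPKM with circ_0005358, against 3.58, 3.87 and 4.56 FPKM with vector. HS6ST1, a heparan sulfate sulfotransferase, was at 0.0037 FPKM in circ_0005358 library 3 and between 5.296 and 6.63 FPKM in the other 5. EN1 reached 1 FPKM only with vector and HNMT only with circ_0005358, so each passed the filter through the group where it is high. All the genes of this paragraph were chosen after their values were seen.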
